A study of Mus musculus with 3 samples.

Results

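The miR-143/miR-145 and miR-199/miR-214 microRNA clusters were followed in mouse liver through every read of 6 precursors: Mir143, Mir145a, Mir199a-1, Mir199a-2, Mir199b and Mir214. The members were taken by locus, not by how they behaved. Their 12 arms gave 9 distinct entries, because identical arms of different loci were merged, out of 420 miRNA entries in the data. The livers came from C57BL/6 mice, an inbred strain, taken 4 weeks after they were injected with scAAV9, an adeno-associated virus vector with a self-complementary genome. It carried a Tough Decoy (TuD) against miR-122, a TuD against let-7, or no TuD (mock), so all groups had received the vector. A TuD is a hairpin RNA, expressed from the vector, that binds and sequesters its target miRNA, and the study asked how such decoys affect the stability and intactness of miRNAs. Neither cluster is a target of either decoy. Each group had 1 library, and the number, age and sex of the animals behind it could not be taken from the labels. No difference below has a replicate check, so no test between groups was made, and every interval is a 95% interval that covers counting error only.

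miR-143 and miR-145 are processed from one primary transcript and are known from smooth muscle cells, pericytes and fibroblasts, where they act on the contractile state. miR-214 and one of the copies of miR-199a come from the noncoding RNA Dnm3os and are known from mesenchymal cells, including hepatic stellate cells, the matrix-producing cells of the liver. Each precursor is a hairpin whose 5p and 3p arms can both yield a mature miRNA, although one arm usually accumulates. The 3′ end of a mature miRNA can be trimmed by exonucleases or extended by enzymes that add adenosines or uridines, which read as A and T. In bulk liver, fewer cells of a type and less RNA per cell cannot be told apart.

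The mature sequences of the miR-199/miR-214 cluster are shown because the results on arms and tails turn on them. They are RefSeq's for GRCm38.p6, with the seed (bases 2 to 8), the part that pairs with targets, in capitals.
miR-199a-5p: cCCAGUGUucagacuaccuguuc
miR-199a-3p: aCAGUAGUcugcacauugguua
miR-214-5p: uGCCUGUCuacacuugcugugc
miR-214-3p: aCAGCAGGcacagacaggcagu
The 4 mature miRNAs have 4 different seeds. The 3p arm is the same in Mir199a-1, Mir199a-2 and Mir199b, so its reads are given together as miR-199-3p. The 5p arm of Mir199b carries the substitution C10T relative to miR-199a-5p, with positions counted from 1 at the 5′ end and the base of miR-199a-5p first. Its most frequent insert in mock, from the deposited reads, is given here.
miR-199b-5p: cccagtgtttagactacctgttc
The hairpins of the chromosome 1 cluster, again from RefSeq, show both arms in capitals.
Mir199a-2: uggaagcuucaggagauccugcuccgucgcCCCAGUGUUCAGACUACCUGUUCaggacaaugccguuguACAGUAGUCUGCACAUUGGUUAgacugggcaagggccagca
Mir214: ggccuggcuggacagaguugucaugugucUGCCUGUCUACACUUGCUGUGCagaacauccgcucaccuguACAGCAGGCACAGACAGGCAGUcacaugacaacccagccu

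The libraries held 3681585 reads in TuD-miR-122, 2066892 in TuD-let-7 and 3450317 in mock, of which 72.0%, 73.1% and 78.5% were miRNA reads. Levels are RPM, read counts scaled to the non-target miRNA reads (those outside the miR-122, let-7 and miR-98 loci), which numbered 1452494, 487713 and 1377808. miR-122-5p stood at 0.804 of mock in TuD-miR-122, and the let-7 loci together at 0.402 of mock in TuD-let-7. In TuD-let-7 miR-122-5p stood at 2.70 times mock, and the ratios of that library depend on the scale. The hepatocyte miRNAs miR-122-5p, miR-192-5p and miR-194-5p were among the abundant miRNAs of each library, which fits the label of liver. The libraries also differed in miRNAs of other tissues. Skeletal muscle miRNAs (5 listed) summed to 994 RPM in TuD-miR-122, 226 in TuD-let-7 and 10601 in mock, and miR-133a-5p had 0 reads in TuD-let-7. Pancreas miRNAs (4 listed) summed to 1612, 162 and 119 RPM, and 51 entries of the imprinted Dlk1-Dio3 cluster to 14592, 3369 and 999 RPM, in the same order. The part of such other tissue in the results below was not tested.

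In GRCm38, Mir143 (chr18:61649196-61649258) and Mir145a (chr18:61647825-61647894) lie 1301 nt apart on the minus strand of chromosome 18, in no other annotated gene; the nearer end of the noncoding RNA Carmn is 366 nt from Mir143. Mir199a-2 (chr1:162217814-162217923) and Mir214 (chr1:162223368-162223477) lie 5444 nt apart on the plus strand of chromosome 1. Both are in an exon of Dnm3os, which runs opposite to Dnm3 within an intron of that gene. Mir199b (chr2:32318460-32318569, plus strand) and Mir199a-1 (chr9:21496495-21496564, minus strand) lie opposite to introns of Dnm1 and Dnm2. All 3 copies of miR-199 therefore sit antisense to a dynamin gene.

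The clusters made up a like share of the non-target miRNA reads in each library. Their 9 entries took 35580 reads in TuD-miR-122, 11790 in TuD-let-7 and 28864 in mock, or 2.45%, 2.42% and 2.09% of those reads. Of all reads they took 0.966%, 0.570% and 0.837%, lowest in TuD-let-7. miR-143-3p carried most of them. It had 17687 RPM in TuD-miR-122, 17988 in TuD-let-7 and 14305 in mock, and ranked 21, 16 and 22 among the miRNAs of those libraries. Both decoy libraries were above mock. miR-145a-5p, from the same transcript, had 2059 RPM in TuD-miR-122, 3088 in TuD-let-7 and 2477 in mock, so that mock lay between the decoy libraries. The passenger strand miR-145a-3p had 95.7, 139 and 85.6 RPM, and miR-143-5p only 17, 13 and 16 reads. For one read of miR-143-5p there were 1511, 675 and 1232 of miR-143-3p, while for one read of miR-145a-3p there were 21.5, 22.1 and 28.9 of miR-145a-5p. The 2 hairpins of the transcript thus differed widely in how one-sided their arms were, in every library.

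miR-199-3p was the main product of the miR-199 loci, with 3175 RPM in TuD-miR-122, 1528 in TuD-let-7 and 2656 in mock. The TuD-let-7 library was low. miR-199a-5p had 1137, 1165 and 1185 RPM in the same order, nearly level across the libraries. miR-199b-5p, the one mature strand that separates Mir199b from the 2 Mir199a loci, had 90.9, 84.1 and 73.3 RPM. miR-214-3p had 197 RPM in TuD-miR-122, 105 in TuD-let-7 and 120 in mock, and TuD-miR-122 stood above the others. miR-214-5p had 43.4, 51.3 and 35.6 RPM on 63, 25 and 49 reads, a difference that counting error covers. A count of 3 reads corresponds to 2.07, 6.15 and 2.18 RPM, so all 9 entries were above that floor in each library.

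**Figure D1:**
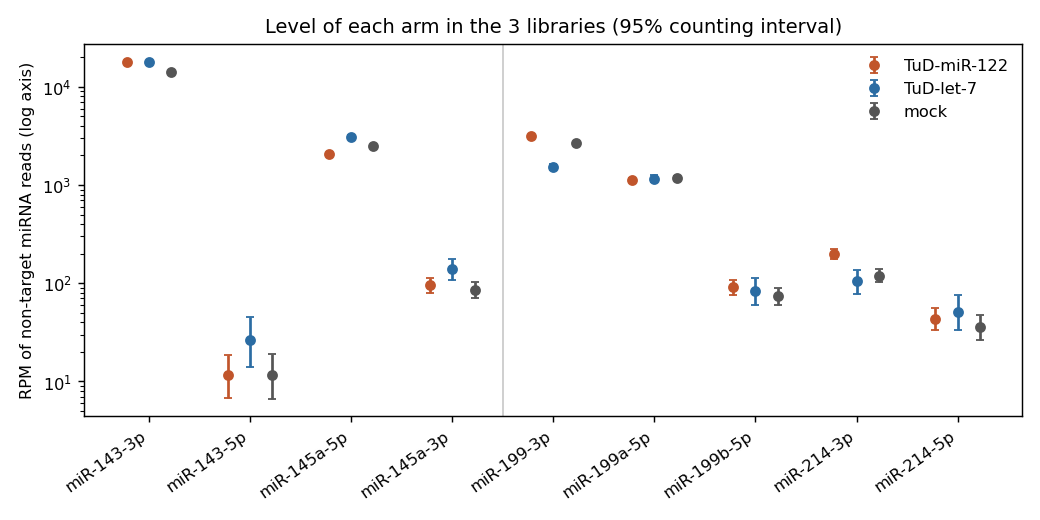
Level of each arm in RPM of non-target miRNA reads (log axis), with TuD-miR-122, TuD-let-7 and mock from left to right within each arm; points are single libraries and bars the 95% counting interval. miR-143-3p is highest in each library, at 14305 RPM or more, and miR-199-3p is lower in TuD-let-7 (1528 RPM) than in TuD-miR-122 (3175 RPM) and mock (2656 RPM).

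Against mock, no tested member moved past 2-fold with either decoy on the non-target scale. In TuD-let-7, 1 member (miR-199-3p) did when scaled to all reads, at 0.340 of mock (0.314 to 0.368), or to all miRNA reads, at 0.365 (0.337 to 0.395). The rule for such a call was at least 100 reads over both libraries and an interval of the ratio wholly above 2 or below 0.5. It called 0 of 8 members in TuD-miR-122, where it called 18.5% of the 227 non-target miRNAs tested (13.7% higher and 4.85% lower). In TuD-let-7 it called 0 of 7 members and 7.77% of the 193 tested (3.63% higher and 4.15% lower). miR-143-5p, under 100 reads and so not tested, was at 2.30 times mock there (1.02 to 5.09). That value did not hold across settings. It was 1.32 (0.457 to 3.45) with inserts read once left out and 1.36 (0.600 to 3.01) scaled to all reads. Smaller differences than 2-fold exceeded counting error for several members. The interval lay wholly above 1 for 3 of 8 members in TuD-miR-122 (36.1% of all tested) and wholly below 1 for 1 of 8 (37.4% of all tested). In TuD-let-7 it lay above 1 for 3 of 7 members (33.7% of all tested) and below 1 for 1 of 7 (34.7% of all tested). The median ratio of the members was 1.21 in TuD-miR-122, against 0.985 over all miRNAs tested, and 1.16 in TuD-let-7, against 0.983.

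The partners of the miR-143/miR-145 cluster went separate ways in TuD-miR-122. miR-143-3p was at 1.24 times mock (1.21 to 1.26) and miR-145a-5p at 0.831 (0.791 to 0.873). In TuD-let-7 the ratios were alike, at 1.26 (1.23 to 1.29) for miR-143-3p and 1.25 (1.17 to 1.32) for miR-145a-5p, but with 1 mismatch allowed they were 1.25 (1.23 to 1.28) and 1.10 (1.04 to 1.16). Within a library, where no scaling enters, there were 8.59 reads of miR-143-3p per read of miR-145a-5p in TuD-miR-122 (8.27 to 8.93), 5.83 in TuD-let-7 (5.51 to 6.16) and 5.77 in mock (5.57 to 5.99). The TuD-miR-122 library thus stood apart from the other two in the balance of the cluster. miR-145a-3p was at 1.12 times mock in TuD-miR-122 (0.868 to 1.44) and at 1.63 in TuD-let-7 (1.19 to 2.21). The value in TuD-let-7 was 0.962 (0.703 to 1.31) scaled to all reads and 1.03 (0.754 to 1.40) scaled to all miRNA reads. Summed, the cluster was at 1.18 times mock in TuD-miR-122 (1.16 to 1.20). In TuD-let-7 it was at 1.26 (1.23 to 1.29), but at 0.744 when scaled to all reads and 0.798 when scaled to all miRNA reads. Scaling to all reads multiplied every ratio of TuD-let-7 to mock by 0.591, and put the median log2 ratio of the miRNAs tested at -0.78, against -0.02 on the scale used here.

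The arms of miR-199 moved apart in TuD-let-7. miR-199-3p was at 0.575 of mock (0.531 to 0.623), whereas miR-199a-5p was at 0.983 (0.892 to 1.08) and miR-199b-5p at 1.15 (0.778 to 1.66). Scaled to all reads, miR-199a-5p was also lower, at 0.581 (0.527 to 0.639), and scaled to all miRNA reads at 0.623 (0.565 to 0.686). In TuD-miR-122 the ratios were 1.20 (1.14 to 1.25) for miR-199-3p, 0.959 (0.895 to 1.03) for miR-199a-5p and 1.24 (0.9495 to 1.62) for miR-199b-5p. Counted within libraries, miR-199 gave 2.59 reads of the 3p arm per read of the 5p arms in TuD-miR-122 (2.45 to 2.73), 1.22 in TuD-let-7 (1.10 to 1.36) and 2.11 in mock (1.99 to 2.24). The 3p arm was the more frequent one in each library, by the smallest margin in TuD-let-7. The 5p arms of Mir199a exceeded that of Mir199b by 12.5, 13.9 and 16.2 reads per read, with overlapping intervals. Of untailed reads, 1, 1 and 2 matched Mir199a-2 and no other copy, 0 matched Mir199a-1 alone and 121, 35 and 83 matched Mir199b alone, so the share of the 2 Mir199a loci could not be read from these data.

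Part of the low miR-199-3p level in TuD-let-7 went with mismatched reads. The matching rule leaves out reads with a mismatch in the first 16 nt. Reads with a later mismatch, such as G19T, can stay in the level as reads with a tail. Reads with 1 mismatch in the first 20 nt made up 8.37% of miR-199-3p in TuD-miR-122, 31.6% in TuD-let-7 and 8.45% in mock. In TuD-let-7 they sat at a few positions: of 304 such reads, 75 carried A6C, 70 G19T, 46 G11T and 45 G4T, with the precursor's base first. In mock, of 332 such reads, 52 carried A6C and 45 G4T. For miR-199a-5p the shares were 14.0% in TuD-miR-122, 20.8% in TuD-let-7 and 11.2% in mock; this includes C10T, the base of miR-199b-5p, and in TuD-let-7 a G12T on 58 of the 148 mismatched reads. The excess in TuD-let-7 was not particular to miR-199, as miR-143-3p had 8.26%, 20.3% and 8.59%, and miR-21a-5p, the most abundant non-target miRNA, 6.27%, 21.98% and 5.57%. With up to 2 mismatches allowed, a setting chosen after seeing the data, the 3p to 5p ratio was 2.58 in TuD-miR-122, 1.46 in TuD-let-7 (1.33 to 1.60) and 2.15 in mock (2.04 to 2.28). The level of miR-199-3p in TuD-let-7 was 0.631 of mock (0.588 to 0.676) with 1 mismatch allowed. The difference was thus smaller when more of the mismatched reads were kept, and still beyond counting error.

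**Figure D2:**
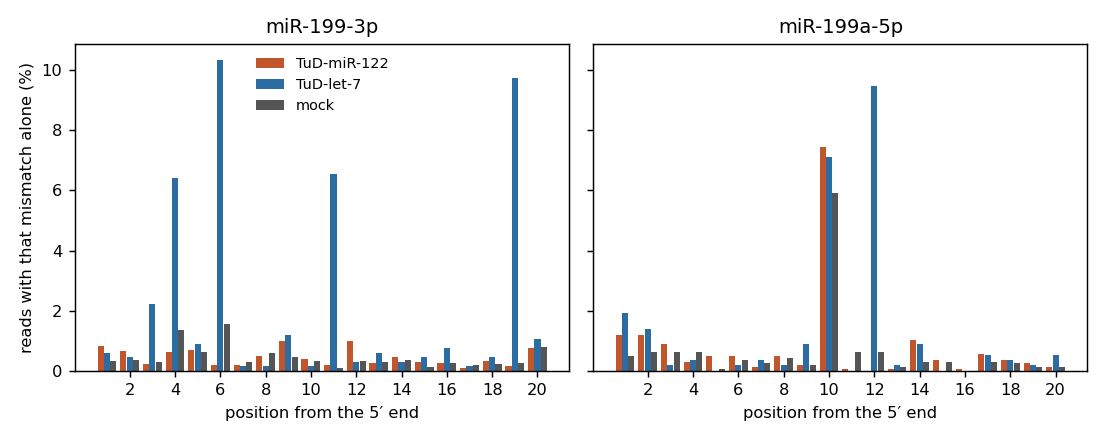
Share of reads of miR-199-3p and miR-199a-5p with a single mismatch at each position from the 5′ end, among exact reads plus the reads mismatched there alone, in TuD-miR-122, TuD-let-7 and mock from left to right. On that base, TuD-let-7 has peaks at positions 6 (10.4%) and 19 (9.74%) of miR-199-3p and at position 12 (9.49%) of miR-199a-5p, and position 10 of miR-199a-5p, which holds the base of miR-199b-5p, is raised in all 3 libraries.

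miR-214-3p had the highest ratio among the tested members in TuD-miR-122, at 1.64 times mock (1.35 to 2.004), while in TuD-let-7 it was at 0.873 (0.625 to 1.20). It is cut from the same transcript as miR-199a-2. miR-214-5p, on the other arm of the same hairpin, was at 1.22 times mock in TuD-miR-122 (0.826 to 1.81). All reads of miR-199 per read of miR-214 came to 18.3 in TuD-miR-122 (16.4 to 20.5), 17.8 in TuD-let-7 (14.1 to 22.8) and 25.2 in mock (21.98 to 29.03). The 2 decoy libraries overlapped in that ratio and TuD-miR-122 was below mock. Summed, the miR-199/miR-214 cluster was at 1.14 times mock in TuD-miR-122 (1.10 to 1.18) and at 0.720 in TuD-let-7 (0.679 to 0.764). Here and below this sum pools Mir199a-1 and Mir199b with Mir199a-2 and Mir214. The level of the chromosome 1 pair alone cannot be read from these data. Reads of miR-143/miR-145 per read of miR-199/miR-214 were 4.28, 7.24 and 4.15 in TuD-miR-122, TuD-let-7 and mock.

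**Figure D3:**
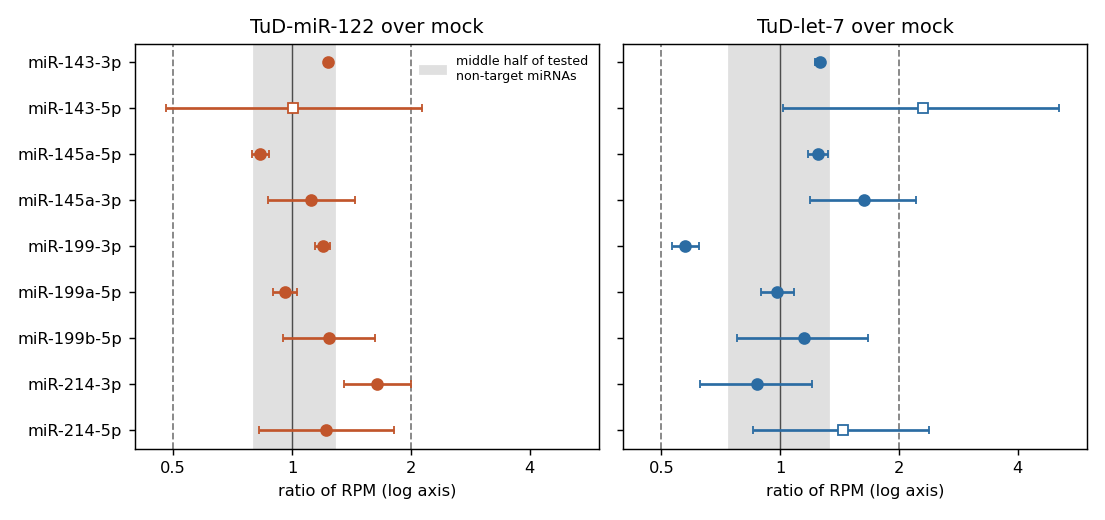
Ratio of RPM to mock (log axis) for TuD-miR-122 (left) and TuD-let-7 (right), with 95% counting intervals; dashed lines mark 0.5 and 2, the grey band the middle 50% of tested non-target miRNAs, and open squares arms under 100 reads over both libraries. In TuD-miR-122, miR-214-3p (1.64) lies above the band. In TuD-let-7, miR-199-3p (0.575) lies below it, and miR-145a-3p (1.63) and the open squares miR-143-5p (2.30) and miR-214-5p (1.44) above it. Both comparisons share the mock library.

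Other stromal and stellate miRNAs, 14 of 14 detected, summed to 12020 RPM in TuD-miR-122, 10020 in TuD-let-7 and 10612 in mock, or 1.13 and 0.944 times mock. By the 2-fold rule 0 of 13 tested were called in TuD-miR-122 (18.5% of all tested) and 0 of 12 in TuD-let-7 (7.77% of all tested). Of those tested, 8 of 13 and 5 of 12 were above mock. The sum hides a spread in TuD-let-7, from miR-10b-5p at 0.443 of mock to miR-542-3p at 1.81. The endothelial pair miR-126a-3p and miR-126a-5p summed to 28775, 21962 and 23746 RPM, or 1.21 and 0.925 times mock. In TuD-let-7 its arms also moved apart, with miR-126a-3p at 1.08 times mock and miR-126a-5p at 0.594. An arm split in that library was therefore not particular to miR-199. The miRNAs whose pair of ratios lay nearest to that of miR-143-3p, among 131 candidates, were miR-511-3p, miR-497-5p and miR-101c-3p, and those nearest to miR-145a-5p were miR-338-3p, miR-101a-3p and miR-339-5p. Nearest to miR-199-3p were miR-15b-5p, miR-126a-5p and miR-195a-5p. Nearest to miR-199a-5p were miR-146-5p, miR-532-5p and miR-7-5p. No member was among the 3 nearest of another: counted over the candidates, the nearest member was number 38 for miR-143-3p, 35 for miR-145a-5p, 48 for miR-199-3p and 49 for miR-199a-5p. The likeness is a distance between 2 log2 ratios that share mock, over 3 libraries, and is a description only.

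The members also differed in their 3′ ends. A read was called tailed when its 3′ end, up to 5 nt, did not match the precursor, and trimmed when fewer than 21 nt matched. Such a tail can be an added base or a base-call error. miR-143-3p was the uridylated member. Tailed reads made up 44.7% in TuD-miR-122, 45.4% in TuD-let-7 and 45.7% in mock, and reads with a tail of T alone 38.0%, 37.1% and 39.2%. In mock only 2 of 80 non-target miRNAs that reached 1000 reads had a higher share of such tails, and their median was 7.07%. One form, 21 matching nt and a single T, made up 26.3%, 26.7% and 25.9% of miR-143-3p, close to a constant share.

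miR-214-3p was the adenylated member. The reads whose tail was all A came to 149 of 286 in TuD-miR-122 (52.1%), 36 of 51 in TuD-let-7 (70.6%) and 114 of 165 in mock (69.1%). None of the 177 non-target miRNAs that reached 100 reads in mock had a higher share, and their median was 8.39%. The main forms are printed from the deposited inserts, with the tail in capitals.
miR-214-3p with 22 matching nt, untailed: acagcaggcacagacaggcagt
miR-214-3p with 21 matching nt and a tail: acagcaggcacagacaggcagA
miR-214-3p with 22 matching nt and a tail: acagcaggcacagacaggcagtA
miR-214-3p with 21 matching nt and a longer tail: acagcaggcacagacaggcagAA
The untailed 22-nt form had 35 reads in TuD-miR-122, 3 in TuD-let-7 and 3 in mock. The form of 21 matching nt with a single A had 63, 14 and 44 reads. The second of these forms led in each library. The untailed 22-nt form made up 12.2% of the arm in TuD-miR-122 (8.67 to 16.6) and 1.82% in mock (0.377 to 5.22). In TuD-let-7 it made up 5.88% (1.23 to 16.2), an interval too wide to set that library apart from either.

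The higher level of miR-214-3p in TuD-miR-122 lay in both untailed and tailed reads, and the ratio to mock was larger for the untailed ones. Untailed reads numbered 63 in TuD-miR-122, 3 in TuD-let-7 and 10 in mock, or 43.4, 6.15 and 7.26 RPM. They stood at 5.98 times mock in TuD-miR-122 (3.04 to 13.1) and at 0.848 in TuD-let-7 (0.150 to 3.29), on few reads. These ratios and the tail shares count reads from the main 5′ start only. At any start, untailed reads numbered 108 in TuD-miR-122, 6 in TuD-let-7 and 26 in mock, so TuD-miR-122 then stood fewer times above mock. Tailed reads from the main start came to 154 RPM in TuD-miR-122, 98.4 in TuD-let-7 and 112 in mock. That was 1.36 times mock in TuD-miR-122 (1.11 to 1.69) and 0.875 in TuD-let-7 (0.619 to 1.22). Of these tailed reads, tails of only A were at 1.24 times mock in TuD-miR-122 (0.965 to 1.60), an interval that includes 1. Tails of only T were at 2.32 (1.03 to 5.72). The tailed share was below mock by 15.97 percentage points in TuD-miR-122 (interval of the difference -22.1 to -9.27), at 78.0% against 93.9%, with TuD-let-7 at 94.1%. Over the 165 non-target miRNAs that reached 100 reads in both libraries, the median difference in tailed share was -1.13 points. Of them, 1 was lower than miR-214-3p. Tails of only A differed by -17.0 points in miR-214-3p, against a median of -0.346 points, and the other 164 miRNAs lay above it. The pancreas and Dlk1-Dio3 miRNAs were higher in the same library, at 13.5 and 14.6 times mock; their part in this result was not tested. miR-214-5p, from the other arm, had a tail on 12 of 63 reads in TuD-miR-122, 6 of 25 in TuD-let-7 and 8 of 49 in mock.

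**Figure D4:**
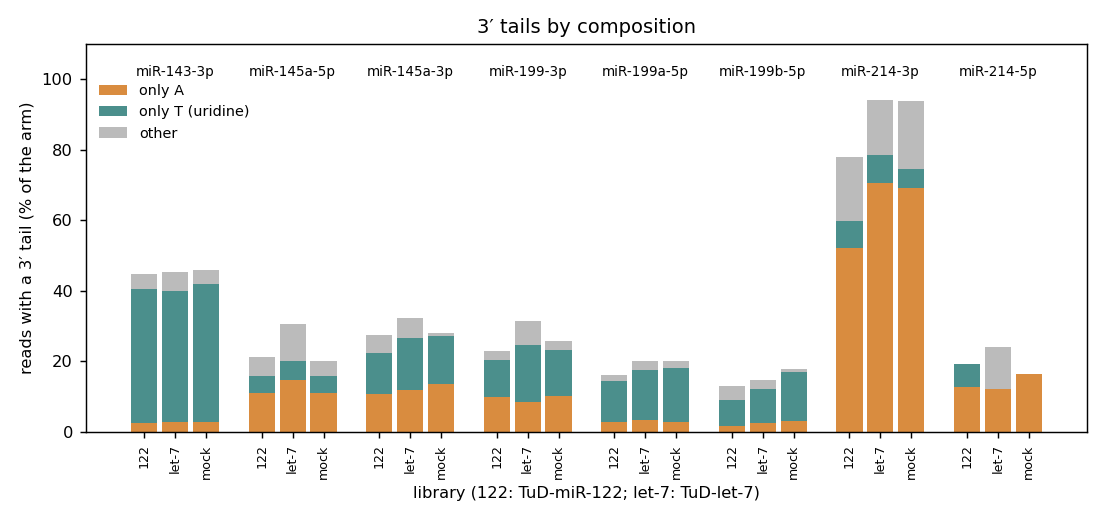
Reads with a 3′ tail as a share of each arm (stacked bars, from 0), split into tails of only A, of only T (uridine in the RNA) and others, with TuD-miR-122, TuD-let-7 and mock from left to right. Tails of only T lead in miR-143-3p (38.0%, 37.1% and 39.2%) and tails of only A in miR-214-3p (52.1%, 70.6% and 69.1%); miR-143-5p, with at most 17 reads a library, is left out.

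miR-145a-5p was the most trimmed member. Trimmed reads made up 52.4% of the arm in TuD-miR-122, 45.6% in TuD-let-7 and 50.3% in mock, and in mock only 3 of 80 non-target miRNAs that reached 1000 reads had a higher share (median 6.45%). Other members were trimmed too, in the same order of libraries. The trimmed share was 25.3%, 23.9% and 24.7% for miR-143-3p and 34.5%, 29.4% and 28.0% for miR-145a-3p. For miR-214-3p it was 15.7%, 15.7% and 20.6%. The lengths of miR-145a-5p fell into separate groups. The untailed 19-nt form made up 37.3% of reads in TuD-miR-122, 23.8% in TuD-let-7 and 38.3% in mock, and the untailed 23-nt form 25.5%, 28.4% and 28.8%. Reads of 19 matching nt were seldom tailed, at 4.87%, 5.79% and 2.97%, while those of 20 matching nt were mostly tailed, at 82.8%, 84.0% and 84.2%. At 21 matching nt the tailed share was 33.6% in TuD-miR-122, 39.8% in TuD-let-7 and 45.99% in mock. The lower trimmed share in TuD-let-7 lay in the short form. Its level was 734 RPM there, 767 in TuD-miR-122 and 949 in mock, or 0.774 and 0.809 times mock for TuD-let-7 and TuD-miR-122. The 23-nt form stood at 876 RPM in TuD-let-7 and 525 in TuD-miR-122, against 713 in mock, or 1.23 and 0.736 times mock. Scaled to all reads, the 23-nt form in TuD-let-7 was at 0.725 of mock and the 19-nt form at 0.457, so the direction of the 23-nt form rests on the scale. miR-145a-5p also had more tails in TuD-let-7, on 30.6% of reads, with 21.2% in TuD-miR-122 and 19.9% in mock. Of the 10.7 points above mock, 6.51 were tails of mixed or other bases and 3.75 tails of only A. A median of 2.68 points of other tails was measured over the 49 non-target miRNAs that reached 1000 reads in both libraries. Mismatched reads enter here too. Within its first 18 nt miR-145a-5p carried A17C on 74 reads and A18C on 57 in TuD-let-7, against 46 with A18C in mock, and such reads can be taken for shorter reads with a tail. With 1 mismatch and 2 matching nt after it allowed, a setting chosen after seeing the data, the tailed share was 20.4% in TuD-miR-122, 26.9% in TuD-let-7 and 19.4% in mock, and the trimmed share 51.8%, 42.7% and 49.2%.

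**Figure D5:**
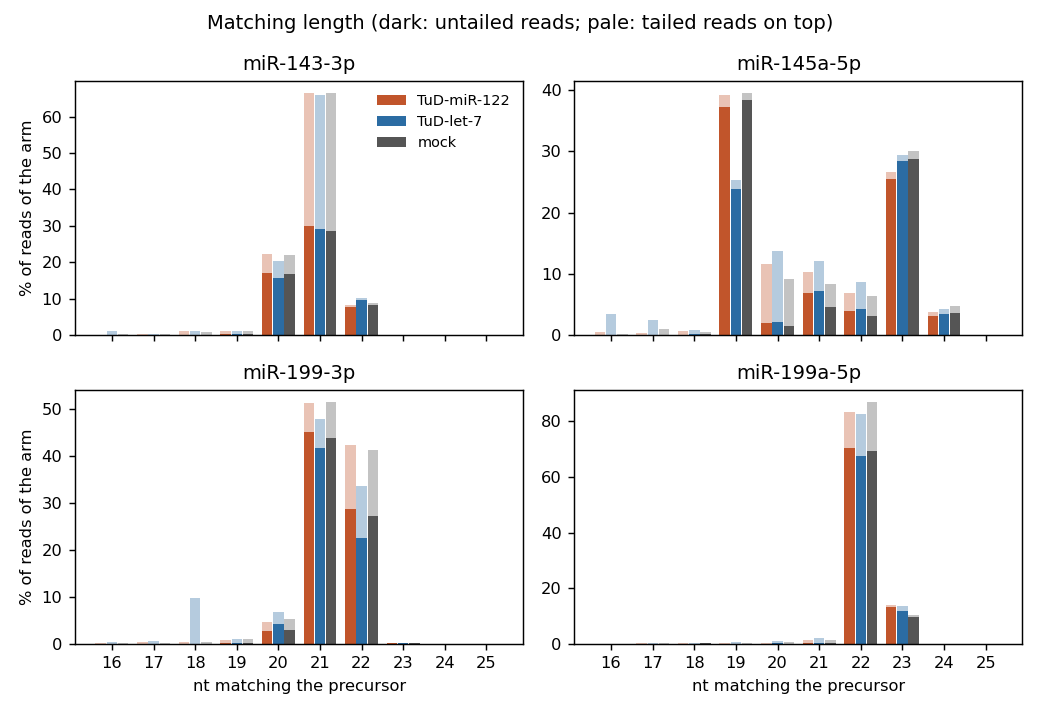
Nucleotides matching the precursor (x axis) as a share of the reads of miR-143-3p, miR-145a-5p, miR-199-3p and miR-199a-5p, with TuD-miR-122, TuD-let-7 and mock from left to right; dark bars are untailed reads and the pale part above them tailed reads. miR-145a-5p has separate maxima at 19 and 23 nt, with the untailed 19-nt form at 23.8% in TuD-let-7 against 38.3% in mock, and miR-199-3p has an 18-nt group at 9.66% of reads in TuD-let-7 against 0.301% in mock.

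The arms of miR-199 were mostly intact. miR-199-3p was tailed in 22.97% of reads in TuD-miR-122, 31.3% in TuD-let-7 and 25.7% in mock, and trimmed in 6.25%, 18.4% and 6.89%. miR-199a-5p was tailed in 15.9%, 20.1% and 20.1% and trimmed in 1.09%, 1.76% and 1.04%. The higher values of miR-199-3p in TuD-let-7 rest largely on one group of reads, with 18 matching nt and a tail, which numbered 12 in TuD-miR-122, 72 in TuD-let-7 and 11 in mock. Its leading insert is set below the leading full-length one to show where they part, with the part called a tail in capitals.
miR-199-3p, 21 nt matching: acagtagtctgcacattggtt
miR-199-3p, 18 nt matching: acagtagtctgcacattgTTT
The second insert had 1 read in TuD-miR-122, 38 in TuD-let-7 and 3 in mock, and it equals the first but for G19T, the mismatch described above. Under the same setting with 1 mismatch, the trimmed share was 6.38% in TuD-miR-122, 13.6% in TuD-let-7 and 6.91% in mock. The tailed share was then 23.4%, 27.3% and 25.9%. There, the tailing of miR-199-3p in TuD-let-7 and mock overlapped within counting error, while the difference in trimming remained beyond it. A read with a second mismatch, such as G19T, can still count as trimmed under that setting. Reads with 2 mismatches in the first 20 nt made up 11.3% of miR-199-3p in TuD-let-7 and 1.77% in mock, among reads with 0 to 2. The setting therefore cannot separate trimming from mismatches. Trimmed shares were higher in TuD-let-7 for most miRNAs. By the main rule miR-199-3p was 11.5 points above mock. Over the 134 non-target miRNAs that reached 100 reads in both libraries, the median was 3.29 points, and 11 were higher than miR-199-3p. That background was taken by the main rule, not with a mismatch allowed. In TuD-miR-122, tails of only T were below mock on both arms, by 3.62 points on miR-199a-5p (11.6% against 15.2%) and by 2.50 points on miR-199-3p (10.4% against 12.9%). Of the 74 non-target miRNAs that reached 1000 reads in both libraries, 2 had a lower difference than miR-199a-5p and 4 a lower one than miR-199-3p, and the median was 0.20 points.

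The 5′ ends, which set the seed, were alike in the 3 libraries. Untailed miR-143-3p began at its main position in 98.7% of reads in TuD-miR-122, 98.99% in TuD-let-7 and 98.9% in mock, and miR-145a-5p in 99.5%, 99.4% and 99.6%. miR-199-3p was looser. It began 1 nt earlier in 8.80%, 8.10% and 8.73% of untailed reads and 1 nt later in 8.31%, 8.43% and 7.25%. miR-199a-5p, on the opposite arm, began at its main position in 97.8%, 97.6% and 98.1%. Untailed miR-214-3p was split between the main position and the one 1 nt earlier, with 44 of 108 reads at the earlier one in TuD-miR-122, 3 of 6 in TuD-let-7 and 16 of 26 in mock. miR-145a-3p began 1 nt earlier in 17.8%, 16.2% and 20.6% of its untailed reads and 2 nt earlier in 19.02%, 13.2% and 16.9%. The shifted reads are not in the levels above, which count reads from the main start. With starts within 2 nt counted, miR-214-3p stood at 1.59 times mock in TuD-miR-122 (1.36 to 1.86) and at 0.759 in TuD-let-7 (0.575 to 0.990), where the interval then lay below 1.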

How the data were processed

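The deposited files give read counts per distinct insert for 3 libraries of liver RNA of 18 to 30 nt, gel-purified after mirVana extraction per the labels' protocols; how adapters were removed and reads filtered is not stated there. The deposited counts are raw. From them, reads were assigned to the 1174 miRNA precursors of GENCODE mouse release 21 (GRCm38). Each arm with at least 10 untailed reads was given its most frequent 5′ start (477 arms); arms identical over 22 nt were joined, which left 420 entries. A read had to begin there and match for at least 16 nt, with a tail of up to 5 nt. Reads that fitted several entries equally (9193 in TuD-miR-122, 4948 in TuD-let-7 and 8926 in mock) were left out of single entries. miR-145a-5p shares its first 17 nt with Mir145b, for which 0 reads were unique. Sequences of miR-143 and miR-145a are not shown.

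RPM used non-target miRNA reads as the scale. Ratios carry exact conditional-binomial intervals and shares exact Clopper-Pearson intervals (95%); PCR copies count as separate reads. The smallest depth, in TuD-let-7, gives 2.05 RPM per read. Each named member is an arm of the 6 precursors; the other named miRNAs are the 3 nearest per member by Euclidean distance of log2 ratios (0.5 reads added, 100 reads in each library), and members of the marker lists. Members and lists were chosen with earlier results of these data known. Alternatives were other scalings, matching rules, tail and trimming limits, minimum counts and control library. The code was tested on simulated data. Python 3.11, numpy 2.4.6 and scipy 1.17.1 were used.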

Additional observations from a re-analysis of the deposited data

How the results depend on the processing

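Of 84 alternative values, 62 lay within the counting interval of the reported value, or gave the same count. Scaled to all miRNA reads, the ratios to mock of the miR-143/miR-145 and miR-199/miR-214 clusters in TuD-miR-122 were 1.27 and 1.23, and with size factors 1.23 and 1.20. With TuD-let-7 as control they were 0.935 and 1.58, against 1.18 and 1.14 as reported. In TuD-let-7 the clusters stood at 0.744 and 0.426 scaled to all reads and at 0.798 and 0.457 scaled to all miRNA reads, against 1.26 and 0.720. On each of those scales 1 member, miR-199-3p, passed the 2-fold rule. The 3p to 5p ratio of miR-199 with starts within 2 nt was 3.07 in TuD-miR-122, 1.44 in TuD-let-7 and 2.49 in mock; in TuD-let-7 it was 1.41 with 1 mismatch and 1.46 with up to 2. The difference in tailed share between TuD-let-7 and mock turned with tails of at most 2 nt, from 1.32 to -0.32 points for miR-143/miR-145 and from 2.62 to -3.49 points for miR-199/miR-214. For miR-199/miR-214 it was -0.48 points, and the trimmed difference 3.24 points against 5.70, with 1 mismatch and 2 matching nt after it. The trimmed difference of miR-143/miR-145 in TuD-miR-122 was -1.57 points below 20 nt, against -0.37. Causes beyond the mismatched reads described were not tested. No paired analysis was possible because each group had 1 library. Depth limits miR-143-5p (13 reads in TuD-let-7), miR-214-5p (25), miR-199b-5p (41) and miR-214-3p (51) most.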
